A study of Mus musculus with 42 samples.

Results

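Desaturases and elongases of fatty acids were examined in livers of mice after up to 21 days on a high-fat diet (HFD). Genes were named by function: Fads2, Fads1, Elovl5 and Elovl2, which build polyunsaturated fatty acids; Scd1, Elovl1, Elovl3 and Elovl6, which act on saturated and monounsaturated chains; and Hacd3, which serves elongation in general. Each gene was represented by its brightest probe set that carries a single gene symbol. Of these 9 genes, 8 were measured among the 17989 genes of the array annotation, each by 1 probe set, and Elovl6 was not analysed here. All 8 had a mean above the 95th percentile of olfactory receptor genes (2.86 on the log2 scale), which served as a background level.

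The livers came from single-housed, random-fed male C3HeB/FeJ mice, an inbred strain, with a wild-type genotype in every group. The groups were mice fed the HFD for 7 days (8 arrays, 15 weeks old), 14 days (8 arrays, 16 weeks old) or 21 days (8 arrays, 17 weeks old), and controls fed a low-fat diet for up to 21 days (18 arrays, 15 to 17 weeks old). Time on the diet and age rose together among the HFD groups, and the labels do not say which control belongs to which age. The titles of the 21-day and control arrays carry the word reanalysis and those of the 7-day and 14-day arrays do not. What the word refers to is not stated. The effect of whatever it marks and that of the diet cannot be told apart at 7 and 14 days, nor between 21 days and the earlier HFD times. Both groups carry the word in the comparison of 21 days with controls.

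Mammals cannot make linoleic and alpha-linolenic acid and take them from food. Fads2 introduces the first new double bond into these precursors, Elovl5 lengthens the product, Fads1 adds a further double bond, and Elovl2 extends the chain on the way to docosahexaenoic acid. These polyunsaturated chains are built into membrane phospholipids. Scd1 places the first double bond into saturated chains such as stearate, Elovl1 makes very long saturated and monounsaturated chains for sphingolipids, and Elovl3 makes saturated and monounsaturated chains in liver and brown fat. Hacd3 is a 3-hydroxyacyl-CoA dehydratase, which removes water in the third step of each elongation cycle. In the liver, the transcription factor SREBP-1c, a product of Srebf1, is known to drive Fads1, Fads2, Elovl5 and Scd1, and polyunsaturated fatty acids are known to lower its activity.

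The RefSeq promoter table of GRCm38.p6 held 250 bases before the start of Fads2, Elovl5 and Elovl2, whose levels were higher on the HFD, and of Elovl1, whose level was not called different. Fads1, Scd1 and Elovl3 had no entry. The sequences are shown side by side because these genes varied together from liver to liver, while 3 of them were called on the diet and 1 was not. They are of the reference strain of that assembly, not of C3HeB/FeJ, and read 5′ to 3′ on the gene's strand. The positions are chr19:10101504-10101753 (minus strand) for Fads2, chr9:77917115-77917364 (plus strand) for Elovl5, chr13:41220404-41220653 (minus strand) for the first listed start of Elovl2 and chr4:118427843-118428092 (plus strand) for the first listed start of Elovl1. Capitals mark matches to 4 motifs searched on both strands: the CCAAT box (CCAAT), the E-box (CACGTG), the GC box (GGGCGG) and the nuclear receptor half-site (AGGTCA).
Fads2: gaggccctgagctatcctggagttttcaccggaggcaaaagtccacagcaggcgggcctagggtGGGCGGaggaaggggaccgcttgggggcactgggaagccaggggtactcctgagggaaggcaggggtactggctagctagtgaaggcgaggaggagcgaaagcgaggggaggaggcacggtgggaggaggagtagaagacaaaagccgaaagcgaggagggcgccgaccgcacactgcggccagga
Elovl5: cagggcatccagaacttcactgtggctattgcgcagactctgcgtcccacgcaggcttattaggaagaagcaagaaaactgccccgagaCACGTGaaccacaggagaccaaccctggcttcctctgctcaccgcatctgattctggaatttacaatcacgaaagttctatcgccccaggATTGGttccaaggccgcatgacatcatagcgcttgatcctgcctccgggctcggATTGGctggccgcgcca
Elovl2: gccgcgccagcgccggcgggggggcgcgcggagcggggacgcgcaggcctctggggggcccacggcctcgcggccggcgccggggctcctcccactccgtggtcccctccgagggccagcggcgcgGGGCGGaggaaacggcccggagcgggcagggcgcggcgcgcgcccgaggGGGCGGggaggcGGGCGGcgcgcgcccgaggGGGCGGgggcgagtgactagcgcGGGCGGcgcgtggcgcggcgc
Elovl1: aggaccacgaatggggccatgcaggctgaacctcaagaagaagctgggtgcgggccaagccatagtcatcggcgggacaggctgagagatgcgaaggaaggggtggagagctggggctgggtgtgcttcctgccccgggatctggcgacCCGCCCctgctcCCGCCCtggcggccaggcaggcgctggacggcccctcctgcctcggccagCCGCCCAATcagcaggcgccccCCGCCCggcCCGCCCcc
Elovl5 held 1 E-box and 2 CCAAT boxes, the nearer of them 17 to 13 bases before the start. Fads2 held 1 GC box, Elovl2 held 5, and Elovl1 held 5 with 1 CCAAT box that overlaps the third of them. None of the 4 windows held the half-site in these exact letters, whereas the second listed start of Elovl1 had 1 in its window. The window of Hacd3, not printed here, held 1 E-box, 1 CCAAT box and 4 GC boxes. Over all 32851 promoter windows of the table, counted over the same bases, 33.8% held the CCAAT box, 6.02% the E-box, 32.7% the GC box and 14.0% the half-site. The matches are a description of the letters in these windows.

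Values throughout are on the log2 scale of the deposited arrays, and a level is not comparable between genes, since each probe set has its own brightness. Differences are HFD minus control. A gene was called where the Benjamini-Hochberg adjusted p of limma's test over all 17989 genes was under 0.05. In whole liver, a change in the RNA of hepatocytes and a change in the share of another cell type cannot be told apart. Markers of hepatocytes were bright in all groups, their mean lying between 11.56 and 11.98 at 7 days, 11.48 and 11.94 at 14 days, 11.42 and 11.93 at 21 days, and 11.57 and 12.06 in controls, with 0 of 6 called at any time by limma (1, 2 and 2 lower at an unadjusted p under 0.05 at 7, 14 and 21 days). Pancreatic acinar markers were present on some arrays of every group. The mean of the 12 measured ran from 3.55 to 9.58 at 7 days, 3.46 to 9.59 at 14 days and 3.37 to 6.43 at 21 days, against 3.43 to 8.65 in controls, and limma called 0 of the 12 at any time, also at an unadjusted p under 0.05. Of the adipocyte markers, Adipoq and Lep lay below background, and limma called 0 of 5, with 0, 1 and 1 lower at an unadjusted p under 0.05.

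Of the 8 measured genes, 5 rose at 7 days, 5 at 14 days and 3 at 21 days, and limma called 0 lower at any time (0, 1 and 1 at an unadjusted p under 0.05, the 1 being Elovl3). Over all genes tested, 1.16% were called higher and 0.239% lower at 7 days. The shares were 0.506% higher and 0.161% lower at 14 days, and 0.445% higher and 0.256% lower at 21 days. At an unadjusted limma p under 0.05, 6, 5 and 5 of the 8 genes were higher at 7, 14 and 21 days, with Scd1 among the 6. Over all 17989 genes, 1669, 1079 and 1198 passed that limit in either direction. The median difference of the 8 genes was 0.71 at 7 days, 0.52 at 14 days and 0.35 at 21 days, against medians over all genes of -0.01, -0.00 and 0.01. The genes that rose were the 4 of polyunsaturated synthesis and the dehydratase Hacd3. The 3 comparisons share the same 18 controls.

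**Figure D1:**
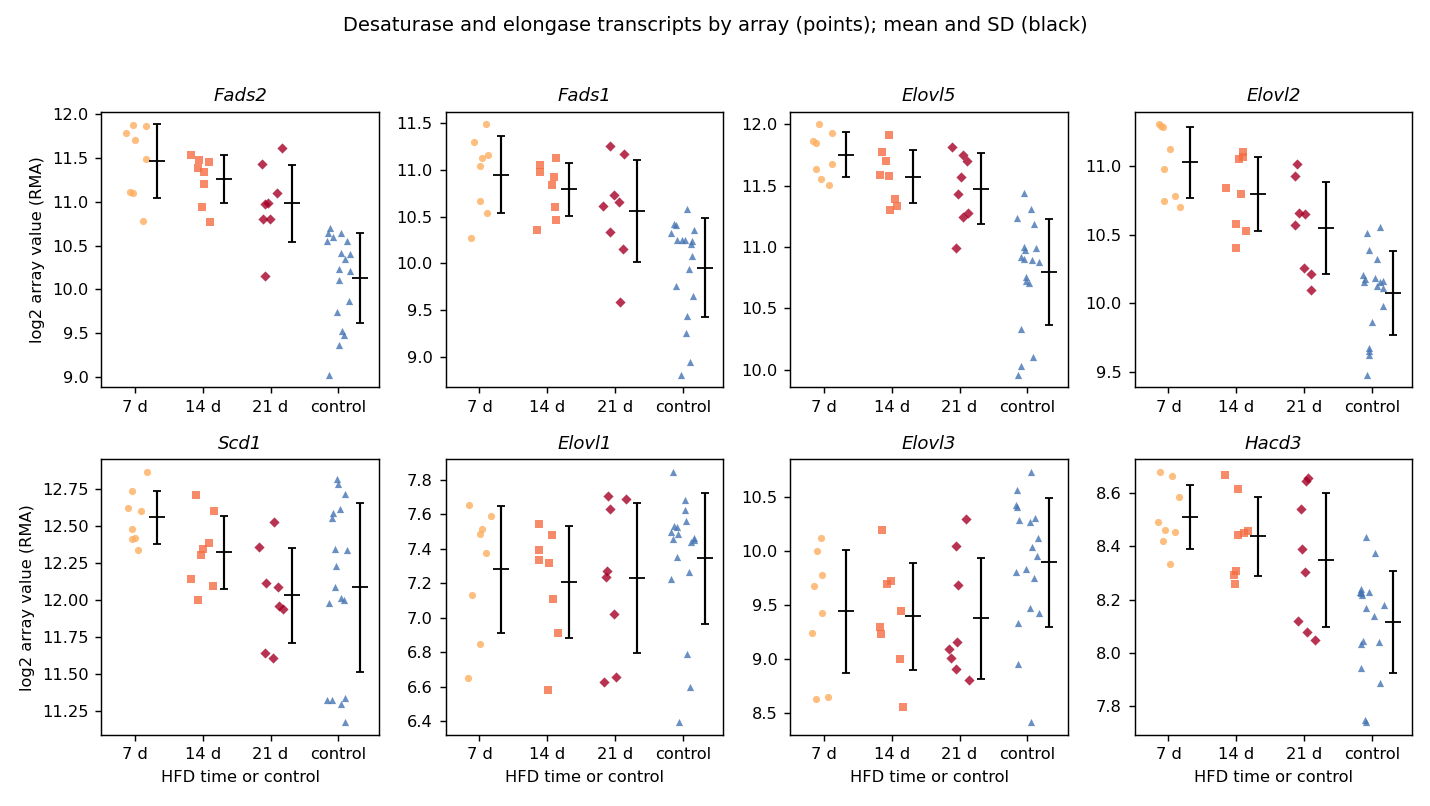
Log2 array value of each measured gene, with 1 point per array, for HFD 7, 14 and 21 days (n = 8 each) and control (n = 18); black marks are the mean and SD. In the Fads2 panel every 7-day and 14-day array lies above the highest control, and in the Scd1, Elovl1 and Elovl3 panels the HFD and control arrays overlap.

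Fads2, the enzyme that opens the pathway, moved most. Its lowest, median and highest levels were 10.78, 11.60 and 11.88 at 7 days, 10.76, 11.36 and 11.53 at 14 days, and 10.16, 10.98 and 11.61 at 21 days, against 9.03, 10.29 and 10.70 in controls. Every array of 7 and 14 days stood above the highest control, and 7 of 8 did so at 21 days. The difference was 1.33 ± 0.18 (SE; 2.51-fold, 95% interval 1.95 to 3.23; adjusted p = 1.79e-06) at 7 days. It was 1.13 (2.18-fold, adjusted p = 8.34e-05) at 14 days and 0.85 (1.80-fold, adjusted p = 0.00599) at 21 days.

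Fads1, which acts after the elongation by Elovl5, lies on chromosome 19 as Fads2 does. Its levels were 10.27, 11.08 and 11.48 at 7 days (lowest, median and highest), 10.36, 10.88 and 11.13 at 14 days, and 9.59, 10.63 and 11.25 at 21 days, against 8.81, 10.22 and 10.58 in controls. The groups overlapped more than for Fads2: 6 of 8 arrays exceeded every control at 7 days, 6 at 14 days and 5 at 21 days. Fads1 rose by 0.99 ± 0.19 (SE; 1.99-fold, adjusted p = 9.08e-04) at 7 days and by 0.84 (1.79-fold, adjusted p = 0.0161) at 14 days. At 21 days the difference of 0.61 (95% interval 0.22 to 0.99) was not called (adjusted p = 0.217). The 14-day call was lost under 6 of 17 other settings (adjusted p up to 0.384). A single 21-day array, replicate 6, was the one at 9.59, and without it the difference was 0.75 (adjusted p = 0.0473).

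Elovl5, the elongase between the 2 desaturations, varied least of the 4 within each HFD group. It ran through 11.51, 11.76 and 11.999 at 7 days, 11.30, 11.58 and 11.91 at 14 days, and 10.995, 11.50 and 11.82 at 21 days, against 9.96, 10.90 and 11.44 in controls. All 8 arrays of 7 days lay above every control, with 5 at 14 days and 4 at 21 days. The rises were 0.96 ± 0.14 (SE; 1.94-fold, adjusted p = 5.91e-06), 0.78 (1.71-fold, adjusted p = 5.67e-04) and 0.68 (1.60-fold, adjusted p = 0.00355) at 7, 14 and 21 days.

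Elovl2, the last elongase of the route, had the smallest spread among controls of the 4. Its lowest, median and highest levels were 10.71, 11.05 and 11.31 at 7 days, 10.40, 10.82 and 11.10 at 14 days, and 10.10, 10.61 and 11.02 at 21 days, against 9.48, 10.16 and 10.56 in controls. The 7-day arrays all exceeded the highest control, while 6 did at 14 days and 5 at 21 days. Elovl2 rose by 0.95 ± 0.12 (SE; 1.94-fold, adjusted p = 5.74e-07) at 7 days and by 0.72 (1.65-fold, adjusted p = 2.67e-04) at 14 days. At 21 days the rise of 0.47 (1.39-fold) was close to the threshold (adjusted p = 0.0498), and leaving out 1 array at a time took the adjusted p past it for 31 of 42 arrays (up to 0.199). It was also past it under 11 of 17 other settings (up to 0.226).

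Arrays that did not overlap with controls at all were found for Fads2, Elovl2 and Elovl5 at 7 days and for Fads2 at 14 days. Over all genes, 0.228% had every 7-day array above every control and 0.0778% every 14-day array. At 21 days 0 of the 8 genes did so, against 0.05% of all genes.

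Hacd3, the dehydratase that polyunsaturated, saturated and monounsaturated elongation have in common, rose less. It ran through 8.33, 8.48 and 8.68 at 7 days, 8.26, 8.45 and 8.67 at 14 days, and 8.05, 8.35 and 8.66 at 21 days, against 7.74, 8.17 and 8.44 in controls. The rise was 0.39 ± 0.08 (SE; 1.31-fold, adjusted p = 0.00216) at 7 days and 0.32 (1.25-fold, adjusted p = 0.0433) at 14 days. The 21-day difference of 0.23 was not called (adjusted p = 0.349). The 14-day call was lost without any 1 of 14 arrays (adjusted p up to 0.148) and under 10 of 17 other settings (up to 0.492). With quantile normalization the 21-day difference was 0.25 and called (adjusted p = 0.0391).

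Scd1, the stearoyl-CoA desaturase, was not called at any time. Its lowest, median and highest levels were 12.34, 12.54 and 12.86 at 7 days, 11.995, 12.32 and 12.71 at 14 days, and 11.60, 12.02 and 12.53 at 21 days, against 11.17, 12.16 and 12.81 in controls. The difference was 0.47 ± 0.17 (SE; fold interval 1.09 to 1.76; adjusted p = 0.245) at 7 days, 0.24 (adjusted p = 0.962) at 14 days and -0.05 (adjusted p = 0.995) at 21 days. The unadjusted limma p-values were 0.00835, 0.175 and 0.753, with 8, 7 and 4 of 8 arrays above the control mean. The controls fell apart for this gene: 5 of them lay between 11.17 and 11.34 and the other 13 between 11.98 and 12.81, while the lowest of the 24 HFD arrays was at 11.60. The same 5 controls, replicates 2, 3, 8, 15 and 17, were also the 5 lowest for Fads2 (9.03 to 9.74) and for Elovl2 (9.48 to 9.87). Of these 5, 4 were among the 5 lowest for Fads1, Elovl5 and Elovl1, and 2 for Elovl3. As the lowest controls for Scd1, Fads2 and Elovl2, these 5 lowered the control means and so raised the differences of these genes. The control mean and median were 12.08 and 12.16 for Scd1, 10.13 and 10.29 for Fads2, and 10.08 and 10.16 for Elovl2. The differences use all controls, and their size without these 5 together was not tested.

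Elovl1 differed by less than the spread between arrays at each time. It ran through 6.65, 7.43 and 7.66 at 7 days, 6.58, 7.33 and 7.54 at 14 days, and 6.63, 7.25 and 7.71 at 21 days, against 6.39, 7.46 and 7.84 in controls. The differences were -0.06, -0.13 and -0.11 (SE 0.15), with adjusted p-values of 0.932, 0.980 and 0.989. Their 95% intervals were -0.37 to 0.25, -0.44 to 0.18 and -0.42 to 0.20.

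Elovl3 was the gene of the set whose mean on the HFD lay farthest below that of controls. Its levels were 8.63, 9.55 and 10.13 at 7 days, 8.56, 9.37 and 10.19 at 14 days, and 8.81, 9.12 and 10.30 at 21 days, against 8.41, 10.0001 and 10.74 in controls. The groups overlapped widely, with 6, 7 and 6 of 8 arrays below the control mean. The differences of -0.45, -0.50 and -0.52 (SE 0.23) were not called, with adjusted p-values of 0.547, 0.745 and 0.629 and unadjusted limma p-values of 0.0522, 0.0330 and 0.0274.

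**Figure D2:**
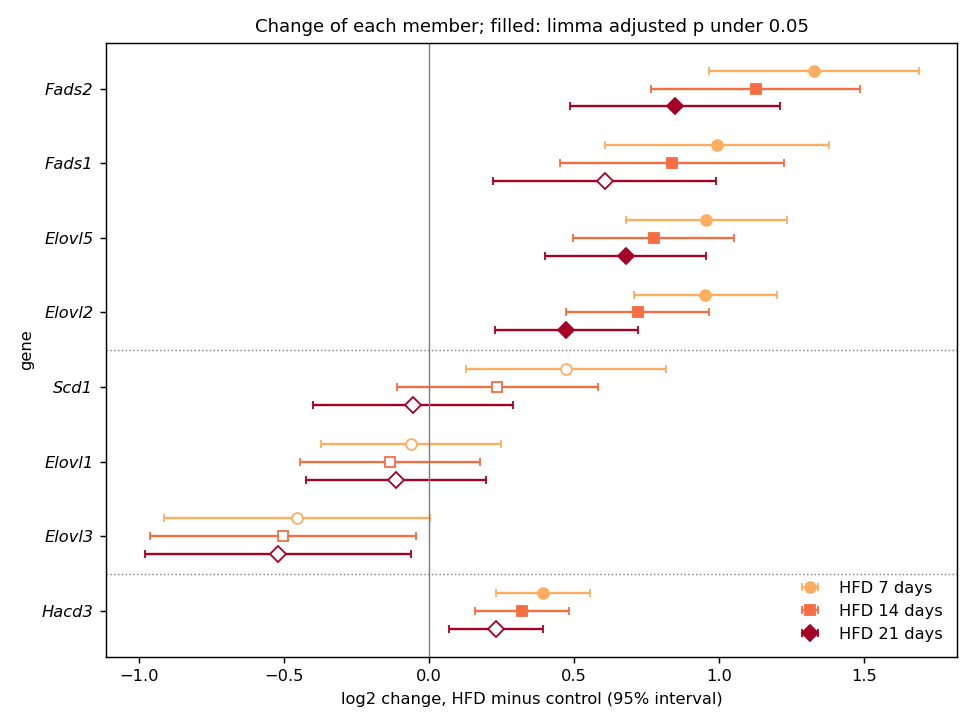
Log2 difference, HFD minus control, of each gene at 7, 14 and 21 days, with 95% intervals from limma; filled symbols have an adjusted p under 0.05, and dotted lines separate the polyunsaturated, the saturated and monounsaturated, and the shared step. Fads2 at 7 days has the highest value, 1.33, and the Elovl3 points lie between -0.45 and -0.52.

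The set was defined to contrast the polyunsaturated steps with the saturated and monounsaturated ones. For each array the mean level of Fads1, Fads2, Elovl2 and Elovl5 was taken minus that of Scd1, Elovl1 and Elovl3. This difference had a lowest, median and highest value of 1.11, 1.52 and 1.90 at 7 days, 1.24, 1.46 and 1.68 at 14 days, and 1.13, 1.32 and 1.63 at 21 days, against 0.03, 0.37 and 1.001 in controls. All 24 HFD arrays stood above all 18 controls. The polyunsaturated mean alone did not separate the groups as fully, with 8, 7 and 6 arrays above every control at 7, 14 and 21 days.

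The group means of this difference were 1.07, 0.999 and 0.88 above control at 7, 14 and 21 days. Of that, the polyunsaturated mean was 1.06, 0.87 and 0.65 higher, and the saturated and monounsaturated mean changed by -0.01, -0.13 and -0.23. The value of -0.01 at 7 days averages differences of opposite sign: 0.47 for Scd1, -0.06 for Elovl1 and -0.45 for Elovl3. The separation is described without a test, since the genes were chosen with results of these data known. It did not rest on Elovl3: without that gene all 8 arrays of each HFD time were still above every control, with differences from control of 0.85, 0.81 and 0.74. Without Scd1, 7, 8 and 4 arrays exceeded every control, and without Elovl1, 7, 6 and 4. Of the 12 single pairs of a polyunsaturated with a saturated or monounsaturated gene, all 12 differed from control in the positive direction at each time, by 0.48 to 1.78 at 7 days, 0.48 to 1.63 at 14 days and 0.53 to 1.37 at 21 days. Not every single pair separated the groups: 4, 5 and 3 of the 12 pairs had every HFD array above every control at 7, 14 and 21 days. For Fads1 minus Scd1 and Elovl5 minus Scd1, 0 of 8 arrays exceeded every control at 7 and 14 days.

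**Figure D3:**
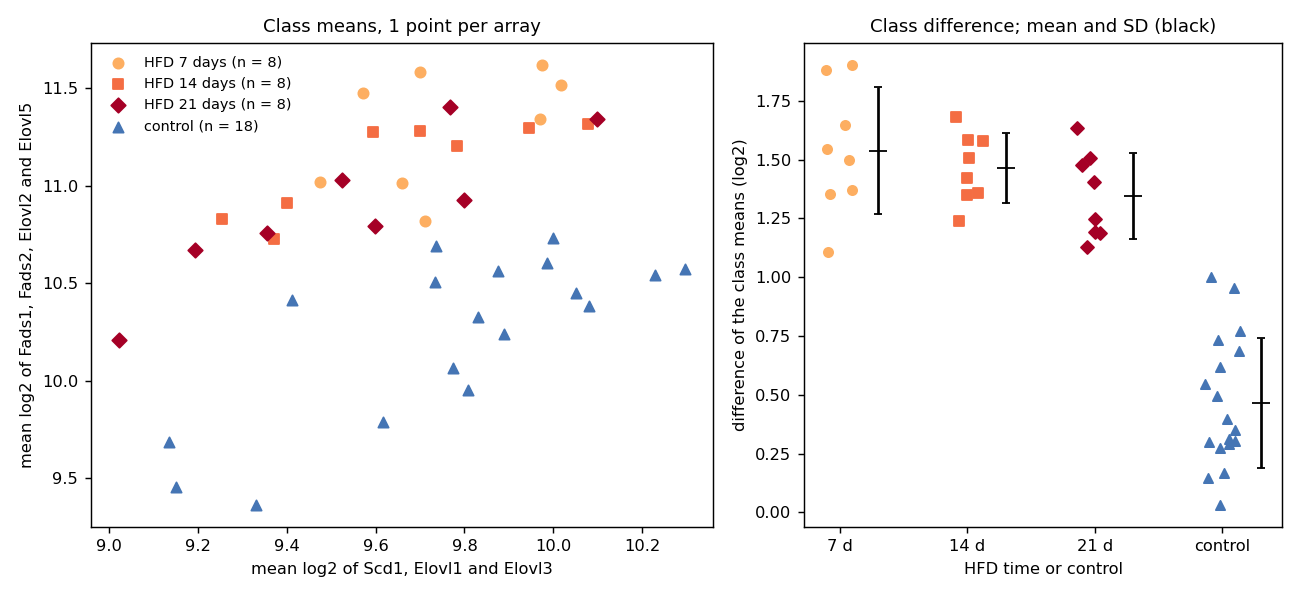
Left, the mean log2 level of Fads1, Fads2, Elovl2 and Elovl5 (vertical) against that of Scd1, Elovl1 and Elovl3 (horizontal), 1 point per array; right, the vertical minus the horizontal mean by group, with mean and SD in black. The HFD arrays lie between 1.11 and 1.90 and the controls between 0.03 and 1.001, so the groups do not overlap.

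Levels at the 3 HFD times were then compared with each other. All 8 genes were lower at 14 than at 7 days and at 21 than at 7 days, but limma called 0 of them in any pair of times and 0 in the F test over the 3 times (0.00556% of all genes passed the F test). Over all genes, 0.0% were called for 14 against 7 days and for 21 against 14 days, and 0.00556% were called lower for 21 against 7 days. An unadjusted p under 0.05 was reached by 451 of all genes for 14 against 7 days and 1283 for 21 against 7 days. It was reached by 715 for 21 against 14 days and by 792 in the F test. Of the 8 genes, 0 did so for 14 against 7 days, 3 for 21 against 7 days and 0 for 21 against 14 days. In the F test 2 of the 8 did. The 3 were Elovl2 (21 minus 7 days -0.48, p = 0.00177), Scd1 (-0.53, p = 0.0121) and Fads2 (-0.48, p = 0.0281), with adjusted p-values of 0.574, 0.613 and 0.678. The 95% intervals of these 3 ran from -0.77 to -0.19, from -0.93 to -0.12 and from -0.90 to -0.05. The label of reanalysis and the time on the diet cannot be told apart in this comparison.

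The genes also varied from liver to liver within a group, and most varied together. Correlations were taken over the 42 arrays on deviations from the group means, for 28 pairs of genes, with p-values from 100000 permutations within groups and adjusted over the pairs. Among the 4 polyunsaturated genes r was 0.78 to 0.94 (Spearman's rho 0.76 to 0.94), the highest being Fads1 with Fads2. Every one of these 6 pairs had a permutation p of 1e-05, the smallest that these permutations can give, and an adjusted p of 2e-05. Leaving out the 2 arrays farthest from the median gave 0.76 to 0.92. Scd1 ran with the polyunsaturated genes (r 0.76 to 0.85, rho 0.78 to 0.86, adjusted permutation p at most 2e-05), and so did Elovl1 (r 0.75 to 0.83, rho 0.68 to 0.74, adjusted permutation p at most 2e-05). Their r without the 2 farthest arrays was 0.71 to 0.82 for Scd1 and 0.70 to 0.81 for Elovl1. None of these r was ranked against the correlations over all genes, and the permutation p sets them only against no relation.

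Scd1 and Elovl1 thus varied with Fads2 between livers of 1 group, while across the diets Fads2 was called and they were not; the difference between the genes' responses was described and not tested. The 5 controls that stood apart for Scd1 bear on these values, so the correlations are also given by cluster. Over the 24 HFD arrays r was 0.79 to 0.97 among the polyunsaturated genes, 0.69 to 0.83 with Scd1 and 0.80 to 0.88 with Elovl1. Over the other 13 controls it was 0.34 to 0.83 among the polyunsaturated genes, 0.64 to 0.77 with Scd1 and 0.10 to 0.58 with Elovl1. Elovl3 did not follow the rest over all arrays: its r with the 7 other genes was -0.08 to 0.18 (rho -0.09 to 0.22), and 0 of these pairs passed an adjusted permutation p of 0.05. Elovl3 was not uniform across groups: with the 6 genes other than Hacd3 its r was -0.45 to 0.08 at 7 days, 0.39 to 0.64 at 14 days and 0.29 to 0.57 at 21 days, against -0.24 to 0.21 in controls. Over the 24 HFD arrays its r with all 7 was 0.10 to 0.37, and over the other 13 controls -0.45 to 0.40. Hacd3 had r of 0.30 to 0.51 to the genes other than Elovl3 over all arrays, but the sign turned at 14 days. There it was -0.57 to -0.05, with 0.62 to 0.78 at 7 days and 0.56 to 0.90 at 21 days, against 0.12 to 0.50 in controls.

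**Figure D4:**
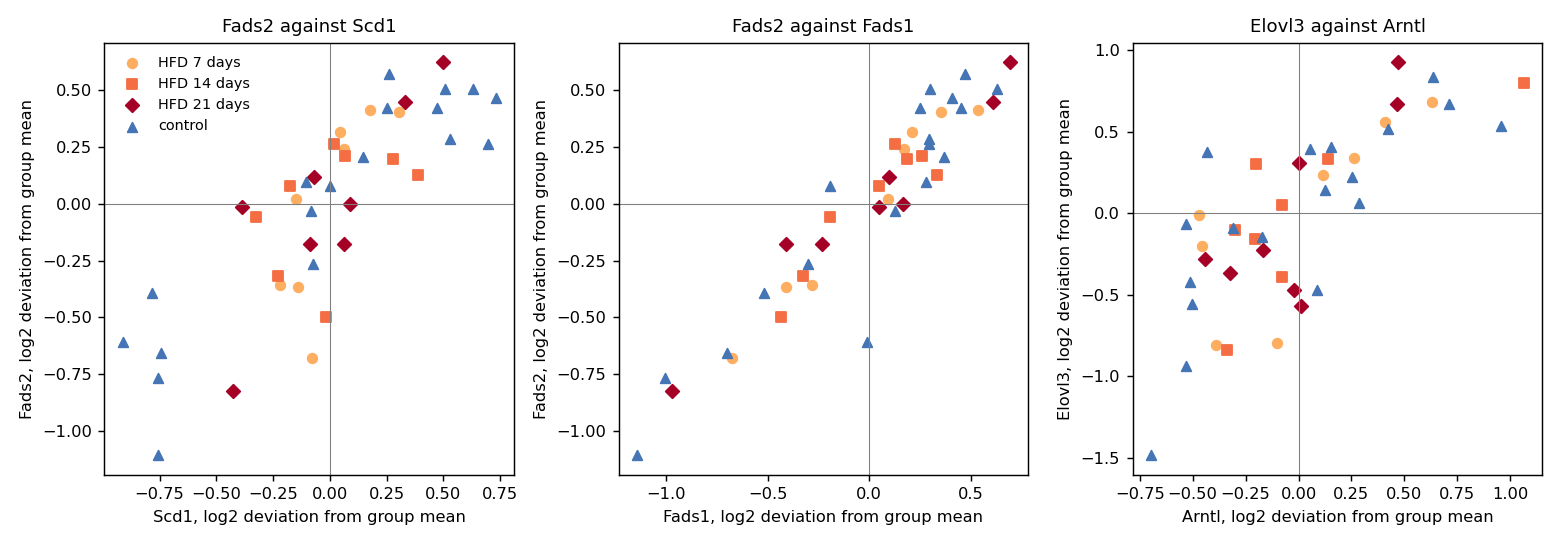
Log2 deviation of each array from its group mean, 1 point per array (n = 42), for Fads2 against Scd1, Fads2 against Fads1, and Elovl3 against Arntl. The points of all 4 groups rise together in each panel, and 5 control points stand apart at the low end of Scd1.

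Nearest partners were ranked for Fads2, Scd1, Elovl1 and Elovl3, again on deviations from the group means over 42 arrays. Predicted, unnamed, Riken and small RNA genes were left out of this ranking, and the other genes of the set were not given partners. Nearest to Fads2 were Gjb2 (r = 0.96), a gap junction protein, Larp1 (0.95), an RNA-binding protein, Sec31a (0.94), a coat protein of vesicles leaving the endoplasmic reticulum, and Slc26a1 (0.94), an anion transporter. Limma called 0 of these 4 at any HFD time, also at an unadjusted p under 0.05, and the difference of Gjb2 at 7 days was 0.24 (adjusted p = 0.678). No gene of the set was among these 4: the highest r of Fads2 within the set, 0.942 with Fads1, lay below all of theirs. Nearest to Scd1 were Gpam (0.91), which starts glycerolipid synthesis, the acetyl-CoA carboxylases Acaca (0.88) and Acacb (0.86), and malic enzyme Me1 (0.85). Of these, Gpam rose by 1.16 at 7 days (adjusted p = 9.11e-05) and 0.95 at 14 days (adjusted p = 0.00413), and Acaca and Me1 rose at 7 days. Nearest to Elovl1 were Atp6ap1 (0.95), a subunit of the vacuolar proton pump, the lysosomal proteins Grn (0.91) and Psap (0.91), and Ppp2r1a (0.91), a phosphatase subunit, with 0 called by limma at any HFD time, also at an unadjusted p under 0.05.

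Nearest to Elovl3 were Agpat2 (0.78), an acyltransferase of glycerolipid synthesis, the core clock gene Arntl (0.76), Smagp (0.69) and the peroxisomal membrane protein Pxmp4 (0.66). Elovl3 is known to cycle with the time of day in mouse liver, and the clock list was therefore set against it after these values were seen. Over 12 clock genes Elovl3 was most negative with Dbp (r = -0.78, rho -0.77), a clock output factor, and with Tef (r = -0.71, rho -0.71). The weakest r were those with Per2 (-0.19), Cry2 (-0.22) and Clock (0.22). These values are given as a description with no p, since the list was taken up because Arntl ranked among the nearest genes to Elovl3. Without the 2 farthest arrays r was 0.73 for Arntl and -0.74 for Dbp. Within the groups Arntl gave 0.76, 0.76 and 0.79 at 7, 14 and 21 days and 0.77 in controls.

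The levels of Arntl and Dbp are given beside the Elovl3 differences. Arntl had a median of 4.36 at 7 days, 4.004 at 14 days and 4.21 at 21 days, against 4.62 in controls, and Dbp had 7.31, 7.81 and 7.36, against 6.90 in controls. Neither was called: the differences of Arntl were -0.20, -0.41 and -0.33, and those of Dbp 0.57, 0.73 and 0.49 (adjusted p 0.552, 0.568 and 0.858). Unadjusted limma p-values were 0.275, 0.0286 and 0.0716 for Arntl and 0.0549, 0.0155 and 0.0976 for Dbp. With Dbp as a covariate, a setting added after the data were seen, the Elovl3 differences were -0.11, -0.06 and -0.22, while those of Fads2 were 1.201, 0.96 and 0.74 and remained called. The hour at which the livers were taken is not given in the labels, and its part was not tested.

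Srebf1 itself was not called. Its lowest, median and highest levels were 6.57, 7.99 and 8.32 at 7 days, 7.07, 7.92 and 8.26 at 14 days, and 6.64, 8.01 and 8.25 at 21 days, against 6.27, 7.69 and 8.51 in controls. The differences were 0.13, 0.32 and 0.26 (SE 0.25; adjusted p 0.904, 0.964 and 0.965). Within groups the polyunsaturated mean followed Srebf1 closely (r = 0.84, rho 0.73, adjusted permutation p = 0.00014 over 14 relations, and 0.81 without the 2 farthest arrays), and the saturated and monounsaturated mean less so (r = 0.56, rho 0.46, adjusted permutation p = 0.00175, and 0.46 without them). The difference between these correlations was not tested. They were not ranked against the correlations of all other genes, and the permutation p sets them only against no relation. The 4 genes nearest to Fads2 followed it with r from 0.94 (Slc26a1) to 0.96 (Gjb2). Those r are with Fads2 alone, not with the polyunsaturated mean, and the 4 were picked as the highest. They are therefore not directly comparable with the r of Srebf1. Whether Srebf1 has a part in this variation was not tested. With Srebf1 as a covariate, also added after the data were seen, Fads2 differed by 1.24, 0.92 and 0.68, Elovl5 by 0.91, 0.67 and 0.59, and Scd1 by 0.42, 0.10 and -0.16. In that fit Fads1 at 21 days passed as well (0.44, adjusted p = 0.0157), and Fads2 (-0.56) and Elovl2 (-0.53) were called lower at 21 than at 7 days (adjusted p = 0.0191 for both).

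The polyunsaturated mean moved against the mean of the Kupffer cell markers within groups (r = -0.42, adjusted permutation p = 0.0476, rho -0.37 with adjusted permutation p = 0.0952, and -0.32 without the 2 farthest arrays). By group r was -0.76, -0.44 and 0.17 at 7, 14 and 21 days, against -0.60 in controls, with the opposite sign at 21 days. Kupffer cells are the resident macrophages of the liver. Of their 8 markers, Vsig4 (0.64), C1qc (0.46) and Cd68 (0.44) rose at 7 days, and limma called 0 at 14 or 21 days (2 and 0 at an unadjusted p under 0.05). The mean of the 8 ran from 5.62 to 6.21 at 7 days, 5.45 to 5.96 at 14 days and 5.14 to 5.85 at 21 days, against 5.17 to 5.87 in controls. Their part in the result was not tested.

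Within groups the polyunsaturated mean also moved against Malat1, a nuclear RNA (r = -0.38, adjusted permutation p = 0.0476, rho -0.28 with adjusted permutation p = 0.175, and -0.33 without the 2 farthest arrays). By group r was -0.66, -0.38 and 0.05 at 7, 14 and 21 days, against -0.51 in controls. On the HFD arrays numbered 5 to 8 Malat1 was above all those numbered 1 to 4 at each time, with means of 9.05 and 6.79 at 7 days, 8.96 and 6.19 at 14 days, and 9.39 and 6.97 at 21 days. With Malat1 as a covariate Fads2 differed by 1.32, 1.07 and 0.87 at 7, 14 and 21 days, against 1.33, 1.13 and 0.85 without it. The part of Malat1 and of the array numbers in the result was not tested. On the 4, 6, 7 and 13 arrays of 7, 14 and 21 days and controls whose acinar mean was under 6, a limit set after the data were seen, Fads2 differed by 1.503, 1.13 and 0.95. In subsets of the HFD arrays the counts of calls differed: with arrays 1 to 4 alone 2 genes were called at 14 days, and with arrays 5 to 8 alone 3 were called at 7 days and 0 at 14 and 21 days, where Fads2 differed by 1.01 and 0.78. The 2 calls missing at 7 days were those of Fads1 (0.79, adjusted p = 0.302) and Hacd3 (0.37, adjusted p = 0.163), and Hacd3 was not called at 7 days on the arrays low in acinar markers either (adjusted p = 0.0995).

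None of the other enzymes of elongation and desaturation was called. Of 12 measured (Elovl4, Elovl7, Hacd1, Hacd2, Hacd4, Hsd17b12, Tecr, Scd2, Scd3, Scd4, Fads3 and Fads6), limma called 0 at each time (0, 1 and 1 lower and 0 higher at an unadjusted p under 0.05). The list's median difference was 0.06, -0.02 and -0.02. Tecr, the reductase that closes each elongation cycle, had the largest difference at 7 days (0.43, adjusted p = 0.562). Hsd17b12, the reductase of the second step, had differences of 0.18, 0.02 and 0.00, and Elovl4, Elovl7, Hacd4, Scd3 and Scd4 lay below background.

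Palmitate synthesis supplies the saturated chains. Of 8 measured genes, Acaca (0.98, adjusted p = 0.00485) and Me1 (0.81, adjusted p = 0.0160) rose at 7 days, and limma called 0 at 14 and 21 days (5 and 3 higher at an unadjusted p under 0.05). The list's median difference was 0.49, 0.37 and 0.19. Fatty acid synthase, Fasn, ran through 8.42, 9.71 and 10.31 at 7 days, 8.43, 9.52 and 9.89 at 14 days, and 8.34, 9.13 and 10.16 at 21 days, against 6.59, 8.62 and 9.69 in controls, and was not called (1.08, 0.93 and 0.80, adjusted p 0.0686, 0.337 and 0.490).

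Of 11 measured regulators of transcription, Ppara was the one called. Ppara, the nuclear receptor that drives fatty acid oxidation in liver, rose by 0.65 (adjusted p = 0.00265) at 7 days and 0.55 (adjusted p = 0.0360) at 14 days, with 0.34 (adjusted p = 0.530) at 21 days. Insig1, which holds SREBP precursors in the endoplasmic reticulum, had differences of 0.24, 0.29 and 0.29 and was not called (unadjusted limma p 0.0223, 0.00768 and 0.00690). At an unadjusted limma p under 0.05, 3, 2 and 2 of the 11 regulators were higher at 7, 14 and 21 days, and 0, 0 and 1 lower. Mlxipl, the glucose-responsive factor ChREBP, had differences of -0.13, -0.08 and -0.00.

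Polyunsaturated chains are activated and placed into phospholipids by a further set of enzymes, of which 10 were measured. Mfsd2a, a transporter of lysophosphatidylcholine that carries docosahexaenoic acid, ran through 7.03, 8.37 and 8.82 at 7 days, 6.46, 7.71 and 8.25 at 14 days, and 6.68, 7.85 and 8.68 at 21 days, against 3.21, 5.09 and 7.64 in controls. It rose by 3.12, 2.52 and 2.58 (adjusted p = 3.89e-08, 9.68e-06 and 7.66e-06). Agpat3, a lysophospholipid acyltransferase, rose by 0.42 (adjusted p = 0.0173) at 7 days, and so did the acyl-CoA synthetase Acsl5, by 0.41 (adjusted p = 0.0456). Lpcat3, which places polyunsaturated chains into phosphatidylcholine, had differences of 0.52, 0.56 and 0.34 (adjusted p 0.140, 0.178 and 0.737). At an unadjusted limma p under 0.05, 4, 4 and 3 of the 10 were higher at 7, 14 and 21 days, and 0, 0 and 1 lower.

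Docosahexaenoic acid is finished by chain shortening in peroxisomes. Of 6 measured genes of that step, Abcd2, Abcd3 and Acaa1b rose at all 3 times. Abcd2, a peroxisomal transporter of very long chain acyl-CoA, ran through 6.10, 6.64 and 7.56 at 7 days, 6.15, 6.58 and 7.18 at 14 days, and 5.69, 6.53 and 7.13 at 21 days, against 4.14, 4.71 and 5.92 in controls, and rose by 1.89, 1.84 and 1.63 (adjusted p = 1.06e-08, 4.32e-08 and 8.95e-07). Acaa1b, a peroxisomal thiolase, rose by 0.86, 0.66 and 0.71, and Abcd3 by 0.50, 0.44 and 0.38. Hsd17b4 and Scp2, which also act there, were not called (0.32 and 0.08 at 7 days), nor was Acaa1a (0.25 at 7 days). At an unadjusted limma p under 0.05, 5 of the 6 were higher and 0 lower at each time. Among them were Hsd17b4 (p = 0.00114, 0.00451 and 0.0342) and Acaa1a (p = 0.0317, 0.0103 and 0.00423), and Scp2 was not.

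**Figure D5:**
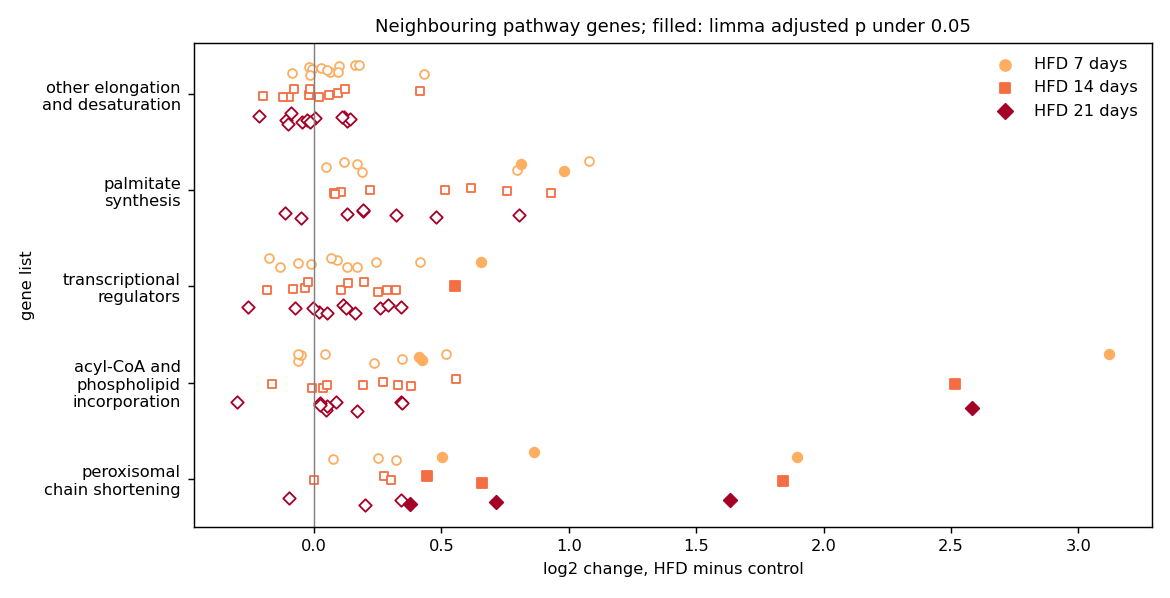
Log2 difference, HFD minus control, of the genes of 5 neighbouring lists, 1 symbol per gene and time; filled symbols have a limma adjusted p under 0.05. The other elongation and desaturation genes hold no filled symbol, and Mfsd2a (3.12 at 7 days) and Abcd2 (1.89) lie farthest to the right.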

How the data were processed

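RNA from 42 mouse livers was hybridised to Affymetrix whole-transcript arrays. The table deposited by the authors holds log2 values, made with RMA in Affymetrix Expression Console 1.1 per the submitters' processing notes. The genome build of its annotation was not used. Array medians ran from 3.08 to 3.28 and no scaling was added. Of 32624 probe sets, 19559 had 1 gene symbol, 1469 several and 11596 none listed; the brightest single-symbol probe set stood for each of 17989 genes, with no filter on dim ones. No probe set with 1 symbol named Elovl6, so neither its level nor its nearest genes are given.

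A single linear model with the 4 groups was fitted to all arrays with limma 3.58.1 under R 4.3.3 (functions lmFit and eBayes). Tests were 2-sided, with Benjamini-Hochberg adjustment over all genes within a comparison, and the fit was tested on simulated data. The labels number replicates without naming animals, so the p-values reflect only how far these arrays scatter, which may be partly technical. Arrays have no read depth, and their number limits the precision. Correlations used 100000 permutations within groups. Named genes were the set itself, every called gene and up to 3 more of each pathway list, and the 4 nearest partners of Fads2, Scd1, Elovl1 and Elovl3. Some other list genes are named as background to the pathway or for their correlation with Elovl3, after their values were seen. The genes of the set and the lists were chosen with earlier results of these data known. Alternatives covered scaling, a dimness filter, probe set averaging, array weights, the prior, the replicate block, covariates, subsets of arrays and leaving out each array. Promoters came from RefSeq (GRCm38.p6).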

Additional observations from a re-analysis of the deposited data

How the results depend on the processing

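Alternatives were run for the 8 genes, their counts of calls, the counts over all genes and the difference between the class means. No other single gene was followed. Correlations were redone only without the 2 farthest arrays and, among the 8 genes, without the controls low in Scd1. No call among the 8 genes changed direction under up to 17 alternatives, nor with each of the 42 arrays left out. The number of genes called higher moved with the set of arrays. With HFD arrays 5 to 8 alone it was 3 at 7 days, 0 at 14 days and 0 at 21 days, in place of 5, 5 and 3. At 14 days it was 2 with HFD arrays 1 to 4, 3 with control arrays 10 to 18, and 3 with the replicate number as a block. Also at 14 days it was 3 with the arrays low in acinar markers and 3 with Dbp as a covariate, both chosen after seeing the data. With Srebf1 as a covariate, likewise added, 2 genes were called lower at 21 than at 7 days, in place of 0. Leaving out 1 array gave 5 calls throughout at 7 days, 3 to 5 at 14 days and 2 to 4 at 21 days. Fads1 at 14 days lost its call without 14-day replicate 5 or 7 (adjusted p up to 0.0596). The difference between the class means stayed between 0.92 and 1.23 at 7 days, 0.80 and 1.05 at 14 days and 0.75 and 0.93 at 21 days. Same-numbered arrays of 14 and 21 days deviated together to some extent (r 0.10 to 0.52, all 8 positive, though 2 of 8 correlated best with their own number), while in each of the other 5 pairs of groups some were negative (down to -0.37). The numbers were therefore not taken as pairs; beside the 14-day count, the replicate block moved Elovl2 at 21 days past the threshold (adjusted p = 0.174). The causes of these shifts were not tested. Subsets of 4 arrays did not give equal counts: HFD arrays 1 to 4 gave 5, 2 and 3 calls among the 8 genes at 7, 14 and 21 days. At 21 days that subset gave 417 genes called higher and 486 lower over all genes, in place of 80 and 46. Precision is limited by the 8 arrays per HFD time, by age rising with time, and by the reanalysis label.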

Other observations

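Genes expressed at a higher level in male than in female mouse liver were set beside these enzymes, since Elovl3 is known to be one of them. Of 6 measured, Cyp7b1, an oxysterol hydroxylase, fell by 0.93 at 7 days (adjusted p = 3.24e-04, limma) and by 0.82 at 21 days (adjusted p = 0.00361), with -0.52 (adjusted p = 0.260) at 14 days. Hsd3b5, a steroid dehydrogenase, fell by 0.73 at 7 days (adjusted p = 0.0146), and complement component C6 fell by 0.75 at 21 days (adjusted p = 0.00503). Cyp2d9, Slco1a1 and Cyp4a12a were not called at any time. At an unadjusted limma p under 0.05, 2, 3 and 4 of the 6 were lower and 0 higher at 7, 14 and 21 days. Within groups the mean of these 6 genes did not follow the saturated and monounsaturated mean (r = 0.12, rho 0.12, permutation p = 0.466, adjusted permutation p = 0.652, and r = 0.10 without the 2 farthest arrays). That mean joins Elovl3 with Scd1 and Elovl1, and Elovl3 alone was not set against these genes.

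Among the 27 sets of 8 HFD arrays examined for a lone value, over the 8 genes and the class difference at each time, 0 held an array beyond Dixon's critical value.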
